A study of Mus musculus with 8 samples.

Results

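The genes examined here are 9 members of the RANK and lymphotoxin pathway, taken by name from the 55487 genes of the count table: the receptors Tnfrsf11a, Tnfrsf11b and Ltbr, the adaptors Traf1, Traf3 and Traf6, the kinase Map3k14, and the transcription factor subunits Relb and Nfkb2. They were followed across thymic epithelial cell (TEC) subtypes, fibroblasts and endothelium of the mouse thymus at 2 ages. All mice were wild-type C57BL/6, untreated, and either 1 week or 16 weeks old. At each age the thymi of several mice were pooled, depleted of CD45+ blood cells and sorted as CD45- Ter119- cells, with EpCAM1+ cells enriched over EpCAM1- cells. Each pool was loaded on 2 wells of a droplet instrument, which gave 4 libraries of RNA counts and 4 matched libraries of antibody tag counts on the same cells (CITE-seq). The wells of an age are technical replicates of 1 pool, so the spread between them covers capture and sequencing and not animals. Age and pool cannot be told apart, and no difference between the ages was tested.

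RANK, the product of Tnfrsf11a, is the receptor through which RANK ligand from lymphoid cells drives medullary TEC to mature and to express Aire. Its ligand is also bound by osteoprotegerin, a soluble decoy receptor encoded by Tnfrsf11b. The lymphotoxin β receptor, encoded by Ltbr, binds lymphotoxin and LIGHT and is needed for the organisation of the medulla. RANK and the lymphotoxin β receptor use TRAF adaptors. TRAF6 leads to the classical NF-kB pathway, while TRAF3 keeps the kinase NIK, the product of Map3k14, at a low level until a receptor is engaged. NIK then sets off processing of the Nfkb2 product p100 to p52, which acts with RelB in the non-canonical pathway.

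The libraries held 1846 and 1430 cells at 1 week and 1939 and 4738 cells at 16 weeks, each with at least 2000 unique molecular identifiers (UMIs). Library totals ran from 21281389 to 45480790 UMIs, medians from 6668.5 to 8690.5 UMIs per cell, and 15 barcodes occurred in more than 1 library. Classes were rebuilt by clustering without the 9 members and 39 other pathway genes, and were named from fixed marker lists. They were cortical TEC (cTEC, 1728 cells at 1 week and 230 at 16 weeks), intertypical TEC (147 and 1790), mature medullary TEC (mature mTEC, 146 and 907), fibroblasts (379 and 1781) and endothelium (140 and 256). All cells carry the label of thymic epithelial cells, while fibroblasts and endothelium were found among them by their markers. A level is given below as UMIs of the gene per 1000000 UMIs of the class in a library (CPM), in the order of wells 1 and 2 at 1 week, then wells 1 and 2 at 16 weeks. Deep cells weigh more in such sums, and levels of different genes were not compared. Markers of other cell types were counted in each class, and how their RNA came there was not tested. Aire, a naming marker of mature mTEC, stood in fibroblasts at 4.29%, 3.84%, 8.07% and 8.82% of its mature mTEC level. It stood at 6.68%, 4.16%, 11.8% and 11.4% in cTEC, and at 5.13%, 3.27%, 10.7% and 16.9% in endothelium. Fezf2, another naming marker of mature mTEC, stood at 1.94%, 2.79%, 5.77% and 6.59% in fibroblasts, at 2.85%, 3.45%, 11.4% and 7.33% in cTEC, and at 2.51%, 2.91%, 8.75% and 9.95% in endothelium.

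Tnfrsf11a (ENSMUSG00000026321, GRCm38 chromosome 1, 105780718 to 105847981, plus strand) was highest in mature mTEC among these 5 classes, at 149, 146, 194 and 201 CPM. Proliferating TEC, a mixed class described further on by cluster, had 35.2, 39.8, 210.0 and 162 CPM. Intertypical TEC, a class named from Ccl21a and other genes of immature medullary cells, had 89.9, 97.0, 68.3 and 79.7 CPM. In cTEC the level was 6.64, 7.13, 11.7 and 18.1 CPM. The mature mTEC values lay above all intertypical values, and both lay above all cTEC values. The difference between mature mTEC and cTEC was 3.92 on the log2 scale (SE 0.526, 95% interval 2.76 to 5.07, edgeR quasi-likelihood test on sums per pool, adjusted p = 0.000411), a 15.1-fold higher level, in 4 of 4 libraries. Against intertypical TEC the difference of 0.95 (−0.09 to 2.00) did not pass the test (adjusted p = 0.171).

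Outside the epithelium, Tnfrsf11a was at 12.1, 25.4, 40.9 and 33.0 CPM in endothelium and at 3.25, 5.61, 10.1 and 9.72 CPM in fibroblasts. It was lower in fibroblasts than in the mean of the 3 TEC classes (log2 −2.90, SE 0.472, edgeR adjusted p = 0.000632), while the endothelial difference of −1.05 (−2.03 to −0.08) did not pass (adjusted p = 0.104). Fibroblasts stood at 2.18%, 3.83%, 5.19% and 4.84% of the mature mTEC level, below the Aire share in each library, and above the Fezf2 share at 1 week and below it at 16 weeks. By these markers the level could not be told apart from RNA of other cells. Endothelium stood at 8.11%, 17.4%, 21.1% and 16.4%, above the Aire share in 3 of 4 libraries and above the Fezf2 share in 4 of 4. The share of cTEC was 4.45%, 4.88%, 6.01% and 9.02%, below that of Aire in 3 of 4 libraries and above that of Fezf2 in 3 of 4.

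**Figure D1:**
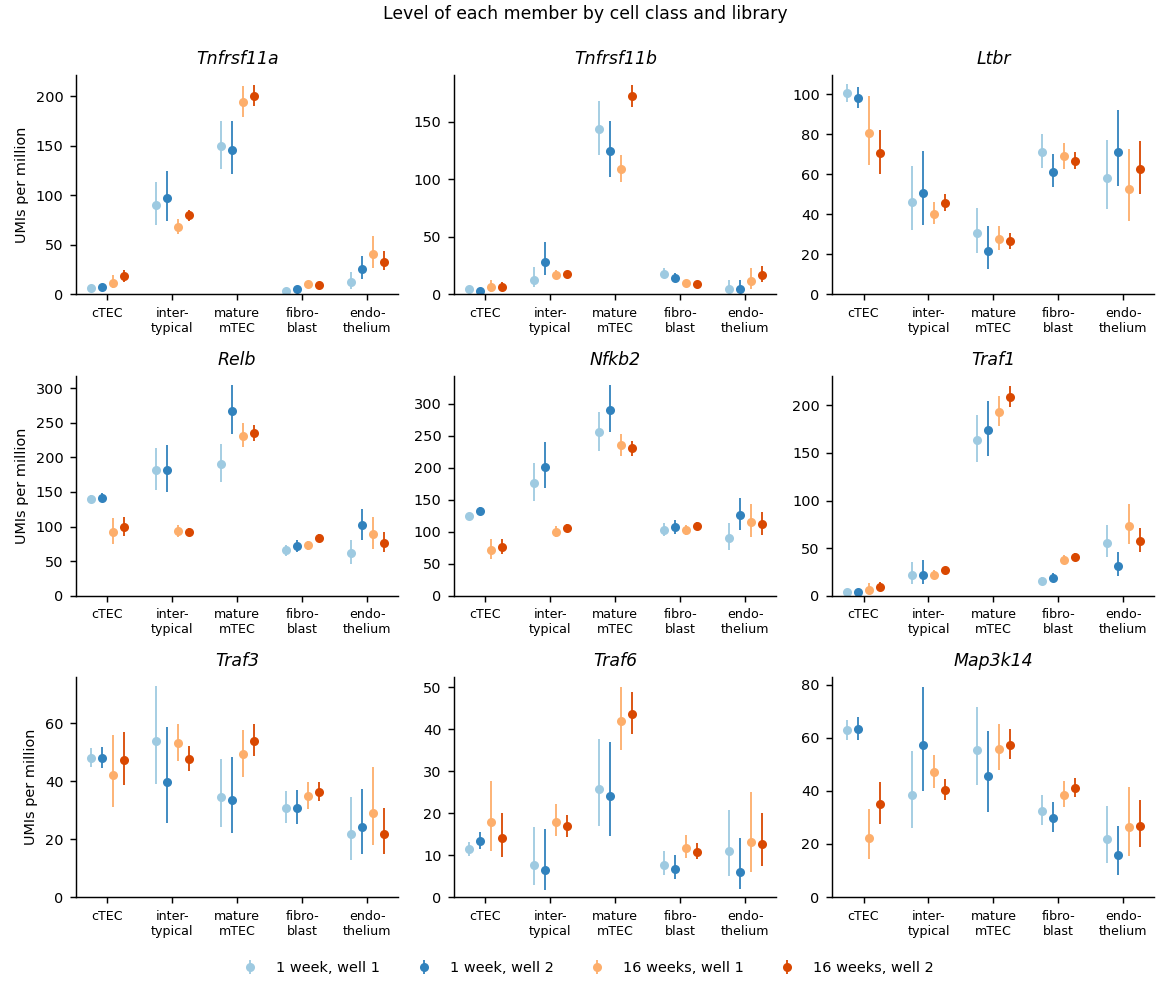
Level of each of the 9 genes (CPM, vertical axes from 0) in cTEC, intertypical TEC, mature mTEC, fibroblasts and endothelium, with 1 point per well coloured by age and bars for the 95% counting interval. Tnfrsf11a, Tnfrsf11b and Traf1 have their highest points in mature mTEC, and Ltbr has its lowest points there.

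To remove differences in depth, every cell was also thinned to 2000 UMIs. A Tnfrsf11a UMI was then found in 22.6%, 16.1%, 31.4% and 28.6% of mature mTEC, in 15.1%, 13.1%, 15.5% and 15.9% of intertypical TEC and in 1.52%, 1.10%, 3.74% and 2.89% of fibroblasts. Without thinning the shares were 56.0%, 59.7%, 67.4% and 62.3% in mature mTEC and 6.60%, 7.69%, 10.7% and 9.47% in fibroblasts, at median depths of 6933 to 8891 UMIs and 10801.5 to 21626 UMIs. These 3 classes were in the same order by share and by level. The thinned shares of cTEC, at 2.37%, 3.22%, 2.94% and 6.17%, and of endothelium, at 5.41%, 3.03%, 11.5% and 1.78%, did not keep the order of the levels among themselves and fibroblasts in every library, so no order was read from them. Tuft-like mTEC, 120 cells at 16 weeks, had 41.8 and 48.2 CPM of Tnfrsf11a, below both the intertypical and the mature mTEC values of that age.

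Tnfrsf11b (ENSMUSG00000063727, chromosome 15, 54250619 to 54278484, minus strand), the decoy receptor, was also highest in mature mTEC among these classes, at 144, 125, 109 and 172 CPM. Intertypical TEC had 12.8, 28.6, 17.2 and 17.6 CPM and cTEC 4.89, 3.30, 6.28 and 6.62 CPM. No value of either class reached those of mature mTEC, and the cTEC values, 3.40%, 2.65%, 5.75% and 3.85% of it, were below the Aire share in every library and below the Fezf2 share in 3 of 4. Intertypical TEC stood at 8.95%, 23.0%, 15.7% and 10.2%, below the Aire share of that class, which was 9.98%, 13.5%, 11.7% and 14.5%, in 2 of 4 libraries. The Fezf2 share of intertypical TEC was 12.7%, 16.4%, 30.0% and 31.9%. The level in mature mTEC was 25.1-fold higher than in cTEC (log2 4.65, SE 0.490, edgeR adjusted p = 0.000124) and 7.95-fold higher than in intertypical TEC (log2 2.99, SE 0.463, adjusted p = 0.00199), in 4 of 4 libraries. Fibroblasts, at 18.0, 14.3, 9.61 and 9.19 CPM, and endothelium, at 4.84, 4.84, 11.7 and 16.9 CPM, overlapped with intertypical TEC. Neither differed from TEC past the threshold (log2 −0.74, adjusted p = 0.138, and −1.23, adjusted p = 0.0599).

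A further class carried this gene. The 86 mesothelial cells at 1 week, which line the surface of the organ, had 141 and 204 CPM of Tnfrsf11b, within and above the range of mature mTEC. Their Tnfrsf11a was at 1.39 and 7.04 CPM. The difference was not tested, since mesothelium had 15 cells at 16 weeks and entered no sum of that pool.

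Ltbr (ENSMUSG00000030339, chromosome 6, 125306571 to 125313885, minus strand) ran the opposite way within the epithelium. It was at 101, 98.3, 80.8 and 70.6 CPM in cTEC, at 46.3, 50.9, 40.5 and 45.7 CPM in intertypical TEC and at 30.6, 21.6, 27.6 and 26.6 CPM in mature mTEC. The 3 epithelial classes did not overlap in any pair. In mature mTEC Ltbr was 3.41-fold lower than in cTEC (log2 −1.77, SE 0.331, interval −2.49 to −1.05, edgeR adjusted p = 0.00194), in 4 of 4 libraries. The difference from intertypical TEC, −0.77 (−1.49 to −0.05), did not pass (adjusted p = 0.114). Fibroblasts had 71.5, 61.4, 69.1 and 66.8 CPM and endothelium 58.1, 71.4, 52.6 and 62.5 CPM. These stromal classes overlapped with each other, and both overlapped with cTEC. Their differences from the mean of the TEC classes were 0.64 (0.10 to 1.18, adjusted p = 0.0634) and 0.40 (−0.18 to 0.98, adjusted p = 0.288).

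The adaptor Traf1 (ENSMUSG00000026875, chromosome 2, 34941750 to 34961772, minus strand), itself a known target of NF-kB, had the largest difference among the 9 members, close to Tnfrsf11b. Over 15 alternatives the log2 differences of mature mTEC from cTEC overlapped between these genes, at 4.26 to 5.31 and 3.56 to 4.95. Those from intertypical TEC also overlapped, at 2.02 to 3.26 and 2.16 to 3.28. Mature mTEC had 164, 174, 193 and 209 CPM, intertypical TEC 21.8, 22.3, 22.1 and 26.6 CPM, and cTEC 3.73, 3.53, 6.28 and 9.27 CPM. The mature mTEC level was 31.2-fold that of cTEC (log2 4.97, SE 0.471, edgeR adjusted p = 8.01e-05) and 8.35-fold that of intertypical TEC (log2 3.06, SE 0.445, adjusted p = 0.00144), in 4 of 4 libraries. cTEC stood at 2.28%, 2.03%, 3.25% and 4.43% of the mature mTEC level, below the Aire share in every library, and intertypical TEC at 13.3%, 12.8%, 11.4% and 12.7%, beside the same Aire shares. The fold against cTEC is thus over a level below that share, and the fold against intertypical TEC over a level below it in 3 of 4 libraries. Whether Aire and Fezf2 in intertypical TEC are RNA of other cells was not tested. The call against intertypical TEC was lost when TEC were clustered without batch correction (adjusted p = 0.0606, with 7.84e-18 to 0.0606 over 15 alternatives).

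Outside the epithelium Traf1 was at 55.7, 31.5, 73.0 and 57.6 CPM in endothelium and at 15.7, 19.1, 37.7 and 41.1 CPM in fibroblasts. Every endothelial value was above every intertypical value. Endothelium stood at 34.0%, 18.1%, 37.7% and 27.5% of the mature mTEC level and fibroblasts at 9.62%, 11.0%, 19.5% and 19.7%, above the Aire share in every library. Against the mean of TEC, the difference was 0.89 (0.16 to 1.63, edgeR adjusted p = 0.0716) in endothelium and 0.02 (−0.67 to 0.72, adjusted p = 0.964) in fibroblasts. The sign of the fibroblast value changed in 5 of 15 alternatives.

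Traf6 (ENSMUSG00000027164, chromosome 2, 101678429 to 101701669, plus strand) was at 25.8, 24.0, 41.9 and 43.7 CPM in mature mTEC, at 7.71, 6.36, 18.0 and 16.8 CPM in intertypical TEC and at 11.4, 13.4, 17.9 and 14.1 CPM in cTEC. All mature mTEC values lay above all values of these 2 classes, while proliferating TEC had 51.3 and 31.2 CPM and tuft-like mTEC 30.4 and 16.1 CPM at 16 weeks. The level was 2.12-fold higher than in cTEC (log2 1.09, SE 0.353, edgeR adjusted p = 0.0287) and 2.75-fold higher than in intertypical TEC (log2 1.46, SE 0.371, adjusted p = 0.0162). Fibroblasts, at 7.75, 6.73, 11.7 and 10.8 CPM, were below the TEC mean (log2 −0.85, SE 0.30, adjusted p = 0.0449), and endothelium had 10.9, 6.05, 13.1 and 12.6 CPM (log2 −0.75, adjusted p = 0.128). Without replicate 2 at 16 weeks the 3 calls were lost (adjusted p = 0.121, 0.0721 and 0.131), and without replicate 2 at 1 week that of the fibroblasts was lost (0.0928). Over 15 alternatives the adjusted p ran from 0.000463 to 0.124, from 0.000156 to 0.107 and from 0.000851 to 0.191.

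Traf3 (ENSMUSG00000021277, chromosome 12, 111166370 to 111267153, plus strand), the brake on NIK, had overlapping levels among TEC. The values were 48.1, 48.1, 42.2 and 47.2 CPM in cTEC, 54.0, 39.8, 53.1 and 47.9 CPM in intertypical TEC, and 34.5, 33.6, 49.3 and 54.1 CPM in mature mTEC. The mature mTEC differences were −0.23 from cTEC (−0.84 to 0.37, edgeR adjusted p = 0.533) and −0.14 from intertypical TEC (−0.76 to 0.47, adjusted p = 0.753), with signs that changed in 3 and 2 of 15 alternatives. Endothelium, at 21.8, 24.2, 29.2 and 21.8 CPM, was 1.94-fold below the TEC mean (log2 −0.95, SE 0.259, adjusted p = 0.0174), in 4 of 4 libraries. That call was lost with predicted doublets kept (0.0512) and with cells thinned (0.0994), in a range of 1.02e-05 to 0.0994. Fibroblasts had 30.7, 30.8, 34.9 and 36.4 CPM (log2 −0.35, adjusted p = 0.257). Traf3 overlaps 4930595D18Rik on the other strand.

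Map3k14 (ENSMUSG00000020941, chromosome 11, 103219762 to 103267472, minus strand), the gene of NIK, was at 55.5, 45.5, 55.9 and 57.4 CPM in mature mTEC and at 38.5, 57.2, 47.0 and 40.4 CPM in intertypical TEC, which overlapped. cTEC had 62.9 and 63.4 CPM at 1 week and 22.4 and 34.9 CPM at 16 weeks, above mature mTEC in the younger pool and below in the older. The difference between mature mTEC and cTEC over both pools was 0.10 (−0.78 to 0.98, edgeR adjusted p = 0.873), and that from intertypical TEC 0.29 (−0.60 to 1.18, adjusted p = 0.645). Fibroblasts had 32.5, 29.7, 38.6 and 41.1 CPM (log2 −0.28, adjusted p = 0.534). Endothelium had 21.8, 15.7, 26.3 and 26.7 CPM, with no overlap with fibroblasts, at −1.04 from TEC (−1.87 to −0.22, adjusted p = 0.0617). The gene model overlaps 1700028N14Rik on the same strand, so the count is uncertain where reads could belong to either.

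Nfkb2 (ENSMUSG00000025225, chromosome 19, 46304320 to 46312385, plus strand) was at 256, 291, 235 and 230.3 CPM in mature mTEC, at 176, 202, 100.2 and 106 CPM in intertypical TEC and at 124, 132, 71.8 and 76.4 CPM in cTEC. Fibroblasts had 103, 108, 103 and 109.5 CPM and endothelium 90.8, 126, 115 and 112 CPM. All 4 mature mTEC values lay above those of these other 4 classes, which overlapped with one another, while proliferating TEC had 249 and 232 CPM at 16 weeks. Nfkb2 was 2.26-fold higher in mature mTEC than in cTEC (log2 1.18, SE 0.413, interval 0.27 to 2.08, edgeR adjusted p = 0.0410), a call lost without the pool block (0.0687, in a range of 2.78e-05 to 0.0687). Against intertypical TEC the difference of 0.82 (−0.09 to 1.72) did not pass (adjusted p = 0.173). In fibroblasts and endothelium the differences from TEC were −0.39 (adjusted p = 0.405) and −0.43 (adjusted p = 0.388). The gene overlaps Psd and AC114539.1 on the other strand.

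Relb (ENSMUSG00000002983, chromosome 7, 19606217 to 19629438, minus strand), the partner of p52, was at 190.5, 267, 231 and 235 CPM in mature mTEC, at 181, 181, 92.9 and 91.5 CPM in intertypical TEC, and at 139.6, 142, 92.4 and 99.3 CPM in cTEC. Mature mTEC were higher in 4 of 4 libraries than either class, but the differences of 0.82 from cTEC (−0.10 to 1.74) and 0.80 from intertypical TEC (−0.14 to 1.73) did not pass (edgeR adjusted p = 0.145 and 0.199). Fibroblasts had 65.5, 71.8, 72.6 and 83.6 CPM and endothelium 61.7, 101.7, 89.1 and 76.6 CPM. They overlapped with each other, at −0.90 (adjusted p = 0.0720) and −0.89 (adjusted p = 0.0993) from the TEC mean.

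Promoter sequences are shown for 3 members: Nfkb2, which had NF-kB motif matches at each of its annotated starts, and Tnfrsf11a and Traf1, which were high in mature mTEC and had none. They are RefSeq sequences of GRCm38.p6 on the strand of the gene, from 250 bases before to 50 bases after a start, and matched 7 of the 9 members. Capitals mark the motif GGGANNNNCC or its reverse complement GGNNNNTCCC. The first Nfkb2 start lies in chr19:46304487-46304786 on the plus strand, that of Tnfrsf11a in chr1:105780473-105780772 on the plus strand, and that of Traf1 in chr2:34961723-34962022 on the minus strand.
Nfkb2: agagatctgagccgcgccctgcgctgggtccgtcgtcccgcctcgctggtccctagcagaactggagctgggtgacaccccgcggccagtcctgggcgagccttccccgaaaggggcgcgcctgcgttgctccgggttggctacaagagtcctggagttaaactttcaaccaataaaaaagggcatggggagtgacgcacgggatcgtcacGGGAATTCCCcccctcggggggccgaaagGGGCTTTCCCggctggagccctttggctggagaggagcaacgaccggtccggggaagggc
Tnfrsf11a: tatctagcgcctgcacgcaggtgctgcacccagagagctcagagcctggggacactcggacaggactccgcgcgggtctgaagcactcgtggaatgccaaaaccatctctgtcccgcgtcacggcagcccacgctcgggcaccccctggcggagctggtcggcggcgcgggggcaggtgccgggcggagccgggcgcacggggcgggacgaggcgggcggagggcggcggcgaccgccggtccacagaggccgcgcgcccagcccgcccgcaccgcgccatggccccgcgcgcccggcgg
Traf1: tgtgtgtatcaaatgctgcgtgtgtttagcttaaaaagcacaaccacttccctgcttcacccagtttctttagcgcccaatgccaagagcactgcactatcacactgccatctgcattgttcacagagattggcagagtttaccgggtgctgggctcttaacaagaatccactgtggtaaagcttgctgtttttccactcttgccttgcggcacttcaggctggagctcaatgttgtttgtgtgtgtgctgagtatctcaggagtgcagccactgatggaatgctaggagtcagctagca
The motif was present in 20.7% of all promoters of this length (6810 of 32851), and in 4 of 9 promoters of the members, which belong to 2 of 7 genes (28.6%). Counted by gene, 22.9% of all genes and 57.6% of the genes of the wider list held it. The member promoters with a match were the 3 starts of Nfkb2, with 2 matches each, and Traf6. The windows of the later Nfkb2 starts overlap and share 1 match. The lack of a match says only that these letters are not in this window, and a match is not a binding site.

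Of the 9 members, 5 were higher and 1 was lower in mature mTEC than in cTEC, where 20.8% of all 16595 genes tested were called higher and 18.8% lower. Against intertypical TEC 3 were higher and 0 lower, with 14.3% and 9.18% of all genes. In fibroblasts 0 were higher and 2 lower than in TEC (19.5% and 16.7% of all genes), and in endothelium 0 were higher and 1 lower (15.0% and 11.6%). The counts in fibroblasts and endothelium are near those of genes at large. The median log2 difference of the 9 members was 1.09 between mature mTEC and cTEC and 0.82 between mature mTEC and intertypical TEC, beside −0.06 and −0.03 over all genes. It was −0.39 in fibroblasts and −0.89 in endothelium, beside −0.03 and −0.09. With DESeq2 size factors in place of TMM, the median over all genes moved to 0.18 and 0.11 in the mature mTEC comparisons, and the share of calls that were higher from 52.6% to 67.1% and from 60.9% to 71.8%. The comparisons share the same sums of cells.

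**Figure D2:**
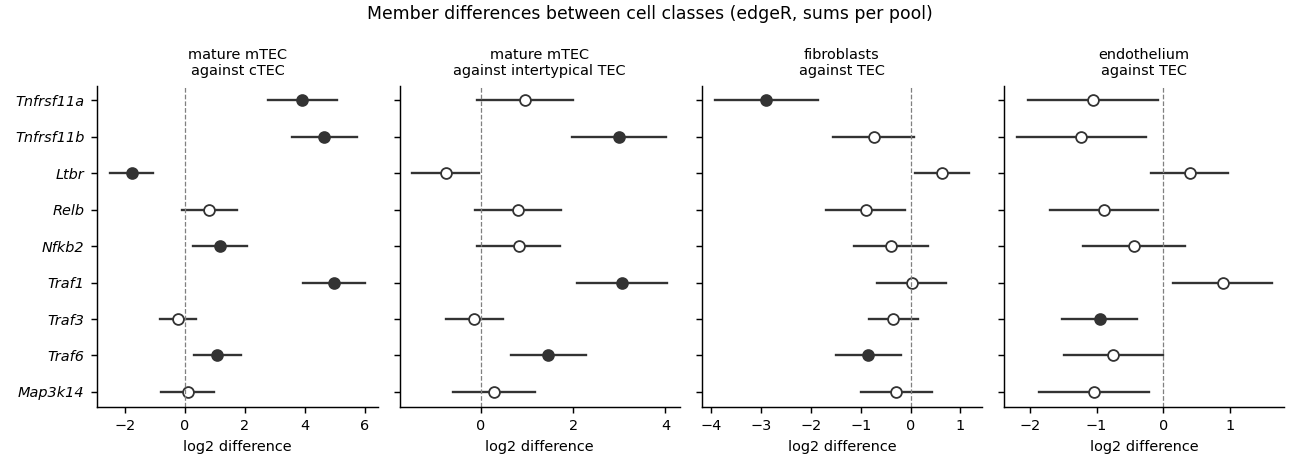
Log2 difference in RNA of each of the 9 genes (horizontal axes, each with its own range) for mature mTEC against cTEC, mature mTEC against intertypical TEC, fibroblasts against TEC and endothelium against TEC. Bars are 95% intervals from edgeR, and filled points passed an adjusted p under 0.05. Tnfrsf11b (4.65 and 2.99) and Traf1 (4.97 and 3.06) lie far to the right in both mature mTEC panels, and Ltbr lies to the left.

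The wider pathway was followed in 39 other genes, of which 37 were tested. In mature mTEC 15 were higher and 2 lower than in cTEC, beside 20.8% and 18.8% of all genes, with a median difference of 0.51. By role, 2 of 3 ligands tested, 2 of 4 receptors, 3 of 16 adaptors and kinases (near the share of all genes), 1 of 3 NF-kB subunits and 7 of 11 known downstream genes were higher. The last count includes Aire and Fezf2, for which it restates the naming of the class. The adhesion molecule gene Madcam1 was at 62.2, 18.0, 40.6 and 56.1 CPM in mature mTEC and at most 2.65 CPM in cTEC (log2 4.81, SE 1.06, edgeR adjusted p = 0.00472). The chemokine gene Ccl20 was at 45.0, 163, 136.5 and 369.8 CPM in mature mTEC and at most 9.27 CPM in cTEC (log2 4.66, SE 0.447, adjusted p = 8.12e-05). It was among the leading genes of the Lypd8-led cluster, 348 of the mature mTEC. The transcription factor gene Fezf2 came next (log2 4.27, adjusted p = 0.000114). The 2 lower genes were Tnfrsf1a, a TNF receptor (log2 −1.39, adjusted p = 0.0243), and the kinase Ripk1 (log2 −0.82, adjusted p = 0.0420).

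Against intertypical TEC 11 of the 37 genes were higher in mature mTEC and 1 was lower, beside 14.3% and 9.18% of all genes, with a median of 0.57. The naming markers Aire and Fezf2 are among the higher genes. Ccl20 (log2 3.99, edgeR adjusted p = 0.000514), Madcam1 (3.91, adjusted p = 0.0229) and the ligand gene Lta (3.32, adjusted p = 0.0152) were the largest. Lta was at 8.61, 2.40, 17.3 and 18.5 CPM in mature mTEC and at most 2.37 CPM in intertypical TEC. Ccl21a, a naming marker of intertypical TEC, was the lower gene (−4.39, adjusted p = 0.000126). Beside Lta and Ltb in mature mTEC stood haematopoietic markers: all 8 of the list were detected, with a sum of 1870.2 to 1898.3 CPM, against 125 to 188 in cTEC. Cd52, which is in that list, was also a naming marker of mature mTEC. A list of 7 thymocyte markers ran the other way. It summed to 129, 129, 84.2 and 63.8 CPM in mature mTEC, and to 214, 217, 188 and 88.3 CPM in cTEC. The part of blood cell RNA in the ligand values was not tested. RANK ligand, Tnfsf11, was at most 1.68 CPM and CD40 ligand, Cd40lg, at most 0.702 CPM in every library of these 5 classes, in cells that had been depleted of CD45+ cells.

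In fibroblasts 7 of the 37 genes were higher and 15 lower than in TEC, beside 19.5% and 16.7% of all genes, with a median of −0.71. The count of higher genes was thus near the share among all genes. Tnfsf13b, the gene of the B cell factor BAFF, was at 8.0, 12.1, 56.7 and 49.6 CPM (log2 3.12, edgeR adjusted p = 0.00017). It was followed by the TNF receptor Tnfrsf1b (2.28, adjusted p = 0.00173) and the chemokine Cxcl13 (1.75, adjusted p = 0.0276). The lower genes were led by Fezf2 (−2.45, adjusted p = 0.00042), Ccl21a (−2.40, adjusted p = 0.000137) and Tnfrsf14, the receptor for LIGHT (−2.10, adjusted p = 0.0311). Fezf2 and Ccl21a named classes of the TEC mean, so their values here and in endothelium partly restate the naming. In endothelium 4 were higher and 7 lower, beside 15.0% and 11.6% of all genes, with a median of −0.51. Tnfrsf1b (2.64, adjusted p = 0.0013), Tnfrsf1a (1.38, adjusted p = 0.00858) and Ripk1 (1.25, adjusted p = 0.00149) were the highest. The chemokines Ccl21a (−2.36, adjusted p = 0.000201) and Ccl19 (−2.15, adjusted p = 0.0450) and Fezf2 (−2.08, adjusted p = 0.00233) were the lowest.

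Clusters within a class differed in their member levels, which are described here with no test. In mature mTEC the 705 cells of the cluster led by Calca and the 348 of that led by Lypd8 had 183 and 203 CPM of Tnfrsf11a, and 206 and 188 CPM of Traf1. A proliferating TEC cluster led by Utf1, with 54 cells at 1 week and 229 at 16 weeks, had 172 CPM of Tnfrsf11a, 254 of Relb, 239 of Nfkb2 and 36.9 of Traf6, values close to those of mature mTEC. Its Map3k14 was 26.2 CPM, with 17.4, 12.6, 23.7 and 33.8 CPM in the 4 libraries, each below mature mTEC, where the 2 clusters had 57.7 and 53.5 CPM. Its Tnfrsf11b was 91.0 CPM, beside 124.6 and 190 CPM. Its Ltbr was 19.7 CPM, beside 20.5 and 36.5 CPM in the mature mTEC clusters. Its Traf1 was 30.8 CPM, with 17.4, 23.4, 22.9 and 41.2 CPM in the 4 libraries, each below all 4 values of mature mTEC. The other proliferating cluster, led by Cenpf and with 143 of its 148 cells from 1 week, had 6.70 CPM of Tnfrsf11a and 4.72 CPM of Traf1, within the range of cTEC.

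Intertypical TEC held 4 clusters. Tnfrsf11a was 121 CPM in that led by Tgfbi, 87.4 CPM in that led by Gm8113, 48.8 CPM in that led by Chil3 and 25.8 CPM in that led by Igfbp5. At 1 week 130 of the 147 intertypical cells were in the Tgfbi-led cluster, and at 16 weeks 509 of 1790. Within this cluster Tnfrsf11a was 99.9, 101, 128 and 127 CPM, higher at 16 weeks, while over the whole class it was lower at 16 weeks. Relb in the same cluster was 193, 178, 119.6 and 109 CPM, lower at 16 weeks as in the whole class. Nfkb2 there was 184, 197, 162 and 140.2 CPM, also lower at 16 weeks, while the whole class had 176, 202, 100.2 and 106 CPM. The Fmod-led TEC, 550 cells that took no class name, had 11.1 CPM of Tnfrsf11a. Among fibroblasts Traf1 was 17.3 CPM in the H19-led cluster, which held all 379 cells from 1 week. It was 45.0, 77.0 and 9.01 CPM in the clusters led by Hsd11b1, Csmd1 and Pi16, which were all from 16 weeks. The Csmd1-led cells were shallow, with a median of 3294 UMIs. The 1-week endothelial cells were in a Gpihbp1-led cluster and those of 16 weeks, all but 2, in an Lrg1-led cluster.

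**Figure D3:**
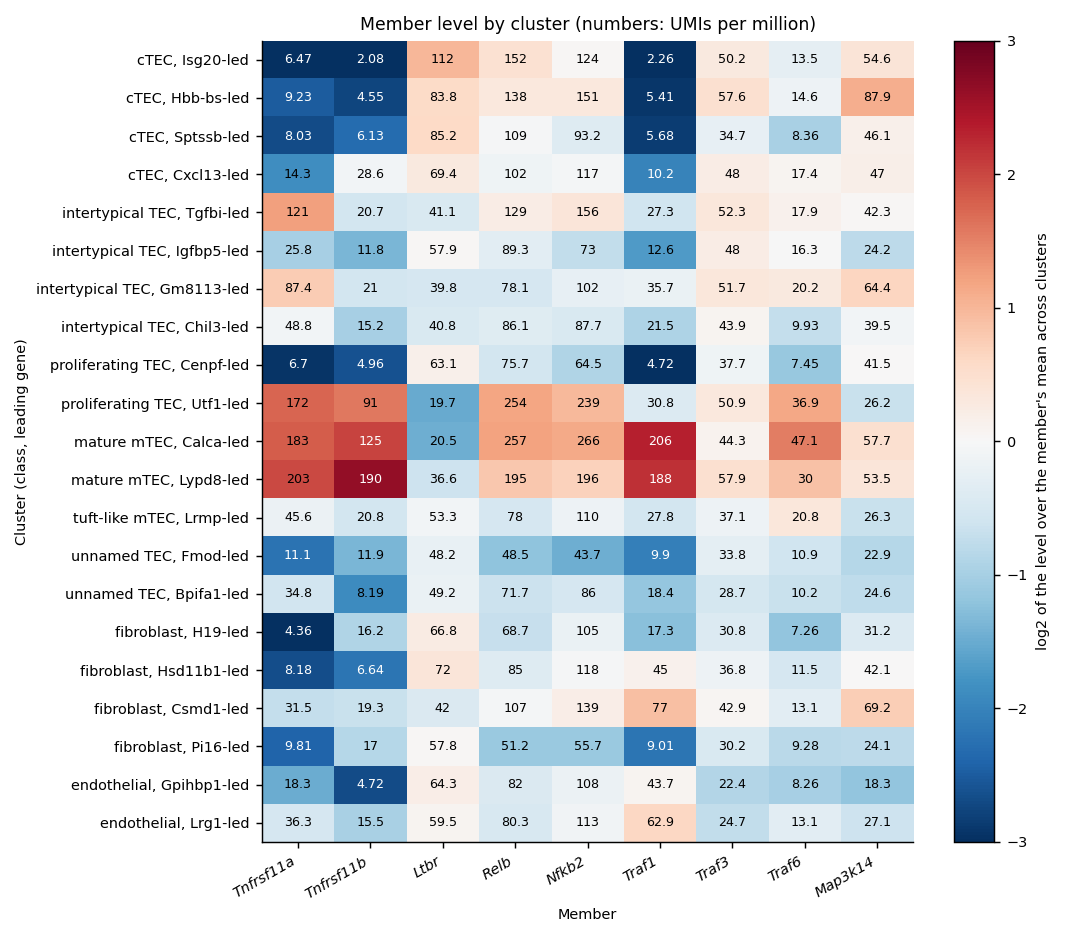
Level of each of the 9 genes (columns) in each cluster (rows, named by class and leading gene). Numbers are levels in CPM, and colour is the log2 of the level over the mean of that gene across clusters. The 2 mature mTEC clusters and the Utf1-led proliferating cluster share high Tnfrsf11a (172 to 203), while Traf1 is 188 and 206 in the former and 30.8 in the latter.

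Between the ages, 21 of the 45 pairs of member and class had both wells of 16 weeks above both wells of 1 week, 11 had both below, and 13 overlapped. Among all genes with at least 20 UMIs, 60.3% in cTEC, 60.8% in intertypical TEC, 46.4% in mature mTEC, 67.7% in fibroblasts and 55.0% in endothelium did not overlap. With a fold of at least 2 beside it, the count was 3 of 9 members in cTEC, 1 in intertypical TEC, 0 in mature mTEC, 2 in fibroblasts and 1 in endothelium. That share among all genes was 16.5%, 20.8%, 13.7%, 19.1% and 14.3%. The total of 7 such pairs of member and class was 3 with cells thinned to 2000 UMIs and 16 with a fold of 1.5. The shares among all genes show how common such differences were between these pools, and the members are described against them with no test. In 5 of 9 members a class with both wells higher stood beside another with both lower, as in 35.5% of the 10849 genes with that many UMIs in all 5 classes. The median log2 ratio over all genes was between −0.06 and 0.10 in the 5 classes.

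In cTEC the ratio of 16 weeks over 1 week for Map3k14 was −1.04 on the log2 scale (95% counting interval −1.33 to −0.75), from 1990 UMIs at 1 week and 104 at 16 weeks. The other members with both wells lower at 16 weeks in cTEC were Nfkb2 at −0.77, Relb at −0.53, Ltbr at −0.43 and Traf3 at −0.08. In intertypical TEC Relb was at −0.98 (−1.17 to −0.78) and Nfkb2 at −0.85 (−1.04 to −0.66), where different clusters held most cells of the 2 ages. In mature mTEC Nfkb2 was at −0.23, Relb overlapped, and Tnfrsf11a was at 0.43 (0.24 to 0.61). Relb was on average at 233 CPM in mature mTEC against 92.2 CPM in intertypical TEC in the older pool, and at 229 against 181 CPM in the younger pool. This difference between the pools was not tested.

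The ratio of Traf6 in intertypical TEC, 1.28 (0.37 to 2.35), rests on 10 UMIs at 1 week. In fibroblasts Traf1 was at 1.21 (0.94 to 1.49) and Tnfrsf11a at 1.17 (0.64 to 1.75), and in cTEC Tnfrsf11a was at 1.22 (0.76 to 1.66) and Traf1 at 1.18 (0.53 to 1.79). In endothelium Tnfrsf11b was at 1.65 (0.50 to 2.98), from 8 and 32 UMIs. Each of these is a higher value at 16 weeks, and markers of mature mTEC moved with them. The summed level of the 8 mature mTEC markers went from 88.2 and 104 CPM at 1 week to 240.4 and 254 CPM at 16 weeks in fibroblasts, from 122 and 116 to 297 and 299 in cTEC, from 128 and 111 to 340.1 and 512 in endothelium, and from 307 and 293 to 450.1 and 521 in intertypical TEC. The part of mature mTEC RNA in these ratios was not tested. In fibroblasts Tnfrsf11b ran the other way, at −0.80 (−1.14 to −0.46).

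**Figure D4:**
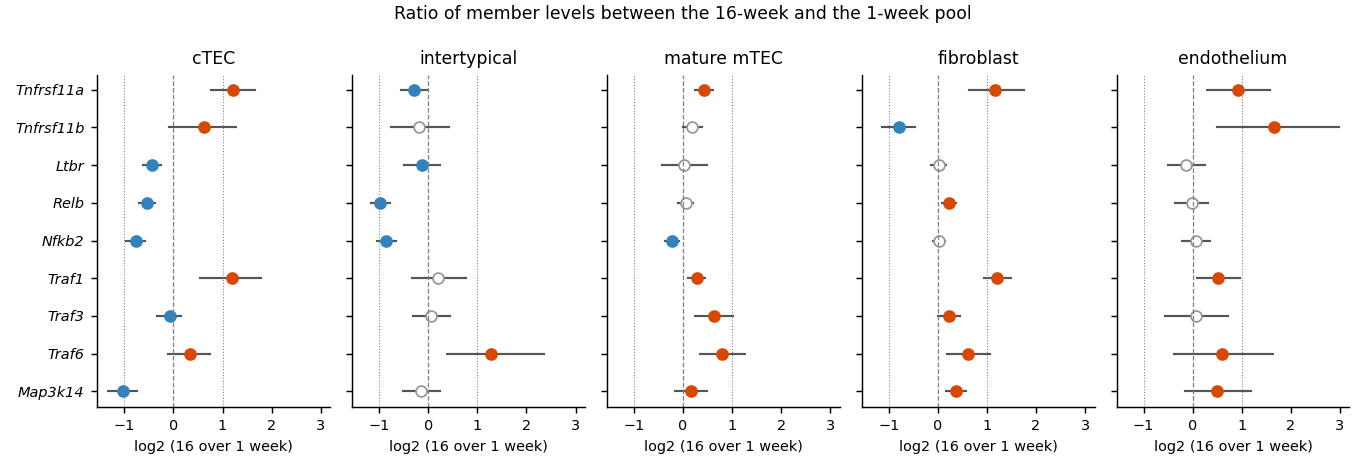
Log2 ratio of the level in the 16-week pool over the 1-week pool for each of the 9 genes in 5 classes (horizontal axes, dotted lines at 2-fold), with 95% counting intervals. Filled points are pairs whose wells did not overlap between the ages, red higher and blue lower at 16 weeks, and open grey points overlapped. Relb and Nfkb2 lie left of 0 in cTEC and intertypical TEC, and Tnfrsf11a and Traf1 lie beyond 2-fold in cTEC and fibroblasts.

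TEC were also divided by surface tags alone, which use no RNA: UEA1, a lectin that marks medullary TEC, and CD80, a costimulatory molecule of mature mTEC. With tag counts scaled to the total of a cell, the limit for CD80 was passed by any cell with a count, and 19.8% of TEC had none. The gates held 3405 UEA1-, 192 UEA1+CD80- and 2491 UEA1+CD80+ TEC, and 51.8% of the mature mTEC fell among the UEA1- cells. By RNA class the UEA1+CD80+ TEC were 56.6% intertypical TEC and 20.4% mature mTEC. The UEA1- TEC were 16.0% mature mTEC, so these gates did not set mature mTEC apart. On these gates 0 members were called in either direction between UEA1+CD80+ and UEA1- TEC, where 0.0518% of 19320 genes were called higher and 0.129% lower by edgeR, with 2079 genes at an unadjusted p under 0.05. Between UEA1+CD80+ and UEA1+CD80- TEC 0 members and 0 genes were called (0% higher and 0% lower), with 1326 genes at an unadjusted p under 0.05. DESeq2 called 1 and 0 members on the same gates, beside 1.37% and 0.0414% of all genes. The differences between UEA1+CD80+ and UEA1- TEC were 2.10 (0.64 to 3.56) for Tnfrsf11a, 2.54 (0.93 to 4.15) for Tnfrsf11b and −0.80 (−1.44 to −0.16) for Ltbr. Those of the other members were 1.39 (−0.60 to 3.38) for Traf1, 0.60 (0.03 to 1.17) for Nfkb2, 0.45 (−0.48 to 1.37) for Traf6, 0.34 (−0.22 to 0.91) for Relb, −0.05 (−0.65 to 0.54) for Traf3 and −0.10 (−0.79 to 0.60) for Map3k14. On these gates Traf1 ran in opposite directions at the ages. It was at 4.72, 4.68, 81.9 and 86.5 CPM in UEA1- TEC. In UEA1+CD80+ TEC it was at 58.1, 63.5, 38.6 and 57.4 CPM, higher at 1 week and lower at 16 weeks.

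With tags as a centred log ratio, the gates held 2745, 1701 and 1642 cells, and 8.93% of mature mTEC were UEA1-. Mature mTEC made up 57.2% of UEA1+CD80+ TEC and 3.42% of UEA1- TEC. Between UEA1+CD80+ and UEA1- TEC 7 members were called, beside 16.4% of genes higher and 14.3% lower. Tnfrsf11a was at 5.89, 4.64, 33.5 and 23.3 CPM in UEA1- and at 103, 117, 175 and 175 CPM in UEA1+CD80+ TEC (log2 3.35, edgeR adjusted p = 0.0110, with 0.286 on the main gates). Tnfrsf11b (3.88, adjusted p = 0.0103), Traf1 (3.19, 0.0299), Nfkb2 (1.15, 0.0143), Traf6 (1.04, 0.0180) and Relb (0.84, 0.0306) were higher and Ltbr was lower (−1.14, 0.0103), while Traf3 (0.01) and Map3k14 (−0.01) were not called. Traf1 was at 2.89, 2.47, 32.8 and 31.5 CPM in UEA1- TEC here. It was higher in UEA1+CD80+ TEC at both ages, at 83.3, 92.2, 114 and 136 CPM. Against UEA1+CD80- TEC 3 were called, Tnfrsf11b (2.7, adjusted p = 0.0298) and Traf6 (0.95, 0.0424) higher and Ltbr (−0.67, 0.0388) lower, beside 6.64% of genes higher and 4.95% lower. The calls on surface tags thus depended on how the tags were scaled.

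**Figure D5:**
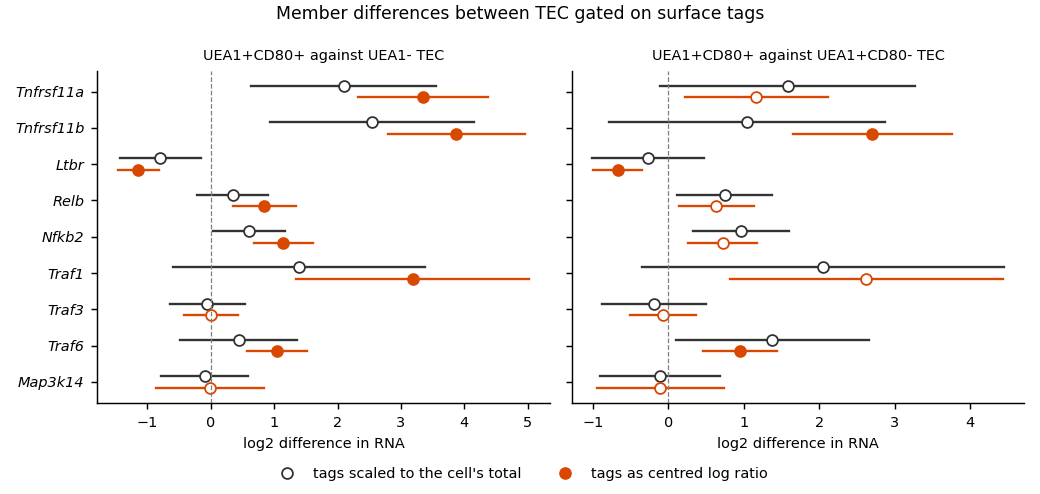
Log2 difference in RNA of each of the 9 genes between TEC gated on the UEA1 and CD80 tags (horizontal axes), with 95% intervals from edgeR, for tags scaled to the total of the cell (dark) and as a centred log ratio (red); filled points passed an adjusted p under 0.05. All dark points are open, and 7 and 3 red points are filled in the 2 panels.

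For each member, the genes with the most similar pattern were those with the highest Pearson correlation of log2(CPM + 10) over 24 units of class and library, among 12322 genes. The units share libraries and depth, so the values are descriptions. Closest to Tnfrsf11a were Prpf38b (0.977) and Igsf9 (0.970), and closest to Relb was Cd40 (0.957), a receptor gene of the wider list. Cd40 was at 147, 176, 156 and 162 CPM in mature mTEC and at 48.1, 46.7, 21.5 and 40.6 CPM in cTEC. For Tnfrsf11b the first named gene was Skint4 (0.964), after 5730419F03Rik (0.965) and 4930520O04Rik (0.964). Traf1 was closest to Inpp5b (0.949), Traf6 to Hspa4l (0.939), Nfkb2 to Mfhas1 (0.927), Ltbr to Snx21 (0.920) and Traf3 to Cep170b (0.866). The lowest likeness was that of Map3k14, at 0.766 to 2700033N17Rik. Over the same units Tnfrsf11a and Ltbr ran opposite to each other (−0.905).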

How the data were processed

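The authors counted the reads with STARsolo 2.7.9a on mm10, filtered the cells at a minimum of 2000 UMIs, and deposited counts: whole UMI counts per gene and cell, and counts per antibody tag and cell, with no normalization. The methods list no strand option beside the default settings, and the kit version differs between the labels and the methods. The sources do not say which mice a well came from beyond the pool, so groups follow age and replicate numbers are wells. Gene IDs matched a symbol for 55141 of 55487 genes, and the 346 without one held 0.0310% of UMIs. Columns of unmapped cells numbered 0.

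Cells were clustered with scanpy 1.11.5 and igraph 0.11.9 (Python 3.11.15, 2000 variable genes, 30 principal components, mutual nearest neighbour correction in TEC). Left out were 253 predicted doublets (2.54%) and 417 shallow epithelial cells in clusters with a median under 3000 UMIs. The doublets were the cells with the highest scores from scanpy's scrublet in each library. Their number was set by an assumed rate of 0.8% per 1000 cells. Clusters were named where at least 3 markers and 50% of a list were raised. These naming limits were set after the clusters were seen, and names at 3 markers alone were added as an alternative after seeing the data. Gates on tags used a 2-component Gaussian mixture (scikit-learn 1.9.0).

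UMIs were summed per pool and class with at least 20 cells and fitted in edgeR 4.0.16 (R 4.3.3, quasi-likelihood, TMM, filterByExpr) with the pool as a block. Calls are at an adjusted p under 0.05, by Benjamini-Hochberg over all genes tested in a fit. These were 16595 genes in the main fit of classes and 19320 on the main tag gates. DESeq2 1.42.0 was an alternative. P-values rest on 2 pools and measure the spread of class differences between them. The TEC reference of the stromal comparisons is the mean of cTEC, intertypical TEC and mature mTEC. Intervals of levels and ratios are exact and cover counting error only. The fits were also run on simulated counts whose shift between the pools was the same in all classes. Such counts cannot show how the p-values behave where classes change differently between the pools. The named genes are the 9 members, and from the pathway list the 3 largest called differences per direction. The members and lists were chosen with earlier results of these data known. Promoters are from RefSeq. The authors' tag sequence list was not used.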

Additional observations from a re-analysis of the deposited data

Results flagged for a closer look

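In 5 members, 1 class or more had both wells of 16 weeks above both wells of 1 week while another class had both below, which also held for 35.5% of 10849 genes with at least 20 UMIs in each class. The difference between the classes was not tested in any of them, and each value is the log2 ratio of the 16-week over the 1-week pool. Tnfrsf11a was at 1.22 in cTEC, 0.43 in mature mTEC, 1.17 in fibroblasts and 0.92 in endothelium, and at −0.29 in intertypical TEC. Tnfrsf11b was at 0.63 in cTEC and 1.65 in endothelium, and at −0.80 in fibroblasts. Relb was at −0.53 in cTEC and −0.98 in intertypical TEC, and at 0.22 in fibroblasts. Map3k14 was at −1.04 in cTEC, and at 0.16 in mature mTEC, 0.37 in fibroblasts and 0.50 in endothelium. Traf3 was at −0.08 in cTEC, and at 0.63 in mature mTEC and 0.22 in fibroblasts. Different clusters held most of the intertypical, fibroblast and endothelial cells of the 2 ages.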

How the results depend on the processing

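Of 540 member values recomputed under alternatives, 466 kept their direction and their side of the threshold, 14 lost the call, 49 gained it and 11 changed sign. Tnfrsf11a, Tnfrsf11b, Ltbr and Traf1 were called between mature mTEC and cTEC in 15 of 15 alternatives. The values that changed sign were Traf3 in mature mTEC against cTEC (0.0107 with DESeq2, 0.00416 with DESeq2 size factors, 0.25 thinned) and against intertypical TEC (0.31 thinned, and −0.224 to 0.0504 when 1 replicate was left out, positive without 1-week replicate 1), Map3k14 against cTEC (−0.0395 thinned), and Traf1 in fibroblasts (−0.0703 with DESeq2, −0.0379 with size factors, −0.42 thinned, −0.26 without batch correction, and −0.0028 to 0.0565 when 1 replicate was left out, negative without 16-week replicate 1). None of these was called under any setting, and the cause was not tested.

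Well numbers do not pair the pools, so the pool itself was the block. When UMIs were summed by library, and the library was the replicate block, 7 members were called against cTEC, 7 against intertypical TEC, 6 in fibroblasts, 7 in endothelium and 3 between UEA1+CD80+ and UEA1- TEC, beside 54.3%, 42.3%, 57.5%, 46.0% and 11.3% of all genes (39.7%, 23.5%, 36.3%, 26.6% and 0.181% by pool). Wells count as replicates in that fit, which gives it more sums. With no replicate block 4 were called against cTEC, 1 in fibroblasts and 0 on the tag gates, beside 29.0%, 24.6% and 0% of all genes.

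The other counts of called members that moved by over 1.5 times were as follows, each with the share of all genes called. Against intertypical TEC (3) they were 6 with no low count filter (15.3%), 5 thinned (13.6%) and 1 without batch correction (10.3%). In fibroblasts (2) they were 5 with no filter (18.8%). In endothelium (1) they were 3 with DESeq2 (29.7%), 2 with size factors (26.8%), 6 with no filter (14.3%), 0 with doublets kept (24.4%), 2 with shallow clusters kept (26.9%), 4 thinned (22.7%) and 2 with members among the clustering genes (26.0%). Between UEA1+CD80+ and UEA1- TEC (0) they were 1 with DESeq2 (1.37%), 2 with no filter (1.98%), 1 thinned (3.07%) and 7 with the centred log ratio (30.7%), which also gave 3 against UEA1+CD80- TEC (0), beside 11.6%. Past 2-fold between ages (7), the count was 16 at 1.5-fold and 3 thinned, and, by less, 9 with doublets kept, 9 without batch correction, 6 with shallow clusters kept and 8 with names at 3 markers. Leaving out 1 replicate gave 5 to 6 calls against cTEC, 2 to 3 against intertypical TEC, 1 to 2 in fibroblasts, 1 to 3 in endothelium and 5 to 8 between ages. The shares of all genes called were 30.1% to 38.5%, 17.6% to 22.8%, 31.7% to 36.6% and 22.7% to 26.7% in these 4 comparisons of classes. Fibroblasts had 1 without 1-week replicate 2, where endothelium had 2. Endothelium had 2 and 3 calls when well 1 or well 2 of 16 weeks was left out. The calls gained were Traf1 (edgeR adjusted p = 0.0430 without 1-week replicate 2 and 0.0194 without 16-week replicate 2), Tnfrsf11b (0.0397 without 16-week replicate 2) and Map3k14 (0.0403 without 16-week replicate 1) in endothelium, and Relb in fibroblasts (0.0343 without 16-week replicate 2). Over all 15 alternatives their adjusted p ran from 0.00345 to 0.416, from 0.00054 to 0.150, from 0.0008 to 0.0977 and from 0.000461 to 0.112. Not run, for lack of 20 cells, were UEA1+CD80+ against UEA1+CD80- TEC with library sums and without either 1-week replicate.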
